A study of Mus musculus with 10 samples.

Results

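The 7 enzymes described here carry methionine through its cycle in the liver and pass its sulphur on to cysteine, and each is read from the row of the count tables that bears its symbol: mat1a, gnmt, ahcy, bhmt, bhmt2, cbs and cth, which the files write in lower case. They are 7 of 14812 gene entries. The data are counts of messenger RNA molecules (unique molecular identifiers, UMIs) in 18378 single hepatocytes, the parenchymal cells of the liver, from male C57BL/6 mice 3 months old on regular chow eaten at will. The mice carried no stated mutation and received no treatment other than anaesthesia with ketamine and xylazine. Cells were isolated by collagenase perfusion and a Percoll gradient at 4 zeitgeber times (ZT, hours of the light cycle), with 3 libraries each for ZT0 and ZT12 and 2 each for ZT6 and ZT18, named A to C within a time. The labels do not say that each library came from its own animal, so the spread between libraries of a time may be in part technical.

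S-adenosylmethionine, made from methionine and ATP, is the methyl donor of most methylation reactions, and the liver is its main site of synthesis and use. Each transferred methyl group leaves S-adenosylhomocysteine, which is split to homocysteine. Homocysteine is then either methylated back to methionine, with betaine or methylfolate as donor, or joined to serine and turned into cysteine by transsulfuration. Hepatocytes lie between portal vessels, where blood enters the lobule, and the central vein, where it leaves, and many of their enzymes are graded along this axis.

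mat1a encodes the liver form of methionine adenosyltransferase, and lies on chromosome 14 (chr14:41105012-41124428). gnmt encodes glycine N-methyltransferase, which spends S-adenosylmethionine to methylate glycine (chr17:46725664-46729211). ahcy encodes S-adenosylhomocysteine hydrolase (chr2:155059310-155074497). bhmt (chr13:93616891-93637758) and bhmt2 (chr13:93656097-93674302) encode the methyltransferases that remake methionine from homocysteine, the first with betaine and the second with S-methylmethionine. cbs encodes cystathionine beta-synthase (chr17:31612623-31637233) and cth cystathionine gamma-lyase (chr3:157894248-157925081), the enzymes of transsulfuration. Positions are those of RefSeq genes on GRCm38.p6. The bhmt and bhmt2 genes are neighbours with 18338 bases between them, and 133 bases separate bhmt2 from Dmgdh, the gene of dimethylglycine dehydrogenase, which handles the product of the bhmt reaction.

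The stretch from 250 to 51 bases upstream of the start in RefSeq's promoter table is printed for cbs and gnmt, whose messages had the widest zone differences of the 7, and for ahcy, whose message was not called different between zones. That table, for GRCm38.p6, holds such a window for 5 of the 7 genes, and each window printed is 200 bases long and reads along the minus strand. Capitals mark every match, on either strand, to the E-box CACGTG, the D-box core TTATGNAA, the TCF/LEF core CTTTGAT or the CCAAT box.
Cbs, chr17:31637256-31637455: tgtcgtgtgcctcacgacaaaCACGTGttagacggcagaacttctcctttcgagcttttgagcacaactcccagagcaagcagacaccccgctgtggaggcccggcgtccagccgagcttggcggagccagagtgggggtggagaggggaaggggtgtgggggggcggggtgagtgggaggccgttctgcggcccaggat
Gnmt, chr17:46729216-46729415: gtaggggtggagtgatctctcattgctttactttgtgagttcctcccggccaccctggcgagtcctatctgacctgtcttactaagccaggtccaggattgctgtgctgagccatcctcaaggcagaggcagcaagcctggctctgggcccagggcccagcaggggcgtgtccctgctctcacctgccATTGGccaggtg
Ahcy, chr2:155074548-155074747: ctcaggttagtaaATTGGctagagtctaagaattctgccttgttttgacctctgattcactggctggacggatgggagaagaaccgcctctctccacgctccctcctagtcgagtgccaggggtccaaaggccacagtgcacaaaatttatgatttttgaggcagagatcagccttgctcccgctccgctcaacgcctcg
The cbs window holds 1 E-box, beginning 229 bases upstream of the table's start. That start lies 28 bases inside the 5′ end of the gene given above for cbs, 46 bases inside it for gnmt and 0 for ahcy, so the E-box begins 201 bases from the cbs gene's end. The gnmt and ahcy windows hold 1 CCAAT box each, read on the opposite strand. None of the 3 windows holds the D-box or TCF/LEF letters. Of 32851 windows of the same length in the table, 4.34% hold the E-box, 28.4% the CCAAT box, 2.57% the D-box core and 2.64% the TCF/LEF core, so these matches are a description of the letters only.

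Library sizes ran from 710 to 2860 cells and from 1454623 to 7144803 UMIs. The median cell of a library held 1588 to 2662 UMIs, and 12.9% to 24.3% of a library's UMIs came from mitochondrial genes. No cell column of one library was repeated in another. All 10 hepatocyte markers were detected, at a summed 47337 to 72789 counts per 1000000 UMIs (CPM), whereas endothelial, macrophage, lymphocyte, neutrophil and stellate lists summed to at most 18.2 CPM in any library. Cholangiocyte markers summed to 5.79 to 117.8 CPM, and erythroid markers reached 361 CPM in 1 ZT18 library against 72.2 to 108 CPM at the other times. Below, a level is CPM of UMIs with the library size scaled by TMM (trimmed mean of M values). Each message is counted from its 3′ end, and levels are compared within a gene only. A gene is called where its p from edgeR's quasi-likelihood test is under 0.05 once adjusted by Benjamini and Hochberg's method over all genes whose mean reaches 3 CPM.

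All 7 enzymes passed that filter, at mean levels of 180 CPM (ahcy) to 1580 CPM (mat1a). Each was counted in every library: the smallest count was 244 UMIs, of cbs in ZT12 library A, and the largest 14055 UMIs, of mat1a in ZT12 library B. ahcy has near-copies in the genome, and how reads shared with them were counted is not given in the sources used here, so its level is uncertain to that extent.

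Along the lobule, 4 of the 7 messages were higher in periportal than in pericentral hepatocytes, and none was higher pericentrally. These were cbs, gnmt, mat1a and cth. In each library the cells were ordered by 16 landmark genes, none of which is among the 7, and divided into pericentral, mid and periportal zones of equal cell number, so positions are inferred and not observed. Of 8923 genes tested, 24.8% differed between the outer zones in either direction, 12% being higher periportally and 12.8% pericentrally. The median difference of the 7 was 0.21 on the log2 scale, beside -0.01 over all genes tested. Where the mean had to reach 20 CPM, which all 7 exceed, 38.6% of 4357 genes were called, and 5 of the 7.

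cbs had the widest gradient of the 7. Its level was 187 ± 61.7 CPM pericentrally, 246 ± 67.5 CPM in the mid zone and 319 ± 72.5 CPM periportally (SD, n = 10 libraries). The fitted difference was 0.77 ± 0.07 (SE, log2; 1.71-fold; adjusted p = 4.0e-11, edgeR). In single libraries the difference, on log2(CPM + 1), was 0.68, 0.53 and 0.79 at ZT0, 0.71 and 0.66 at ZT6, 1.21, 0.55 and 0.98 at ZT12, and 1.07 and 0.85 at ZT18. It was thus above 0 in 10 of 10 libraries, and the smallest of the 10 values was still 0.53.

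gnmt followed. It stood at 690 ± 112 CPM pericentrally and 1029 ± 227 CPM periportally, a difference of 0.56 ± 0.06 (SE; 1.48-fold; adjusted p = 9.5e-09, edgeR). The library values ran from 0.27, in ZT18 library B, to 0.99, in ZT0 library C, and all 10 were positive. For mat1a the levels were 1355 ± 377 and 1726 ± 475 CPM, whose ranges overlap widely because the libraries differ in level at every position. Within a library, however, the periportal zone was higher in 10 of 10, by 0.15 to 0.57, and the fitted difference was 0.35 ± 0.06 (1.28-fold; adjusted p = 1.2e-05, edgeR).

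cth, which acts on the product of cbs, had a smaller gradient. Its level was 361 ± 90.3 CPM pericentrally and 419 ± 110 CPM periportally, and the difference was 0.21 ± 0.06 (1.16-fold; adjusted p = 0.0078, edgeR; higher in 9 of 10 libraries). With library sizes alone, which put the median of all genes at -0.11, it was 0.11 with an adjusted p of 0.17. Under that scaling 710 genes were higher periportally and 1831 pericentrally, beside 1068 and 1142 with TMM.

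The other 3 messages were not called. bhmt2 differed by 0.17 ± 0.06 (adjusted p = 0.052, edgeR) and was higher periportally in 8 of 10 libraries. It passed the threshold without ZT6 library B (adjusted p = 0.040) and without ZT12 library B (adjusted p = 0.046). Over 21 alternatives the bhmt2 difference ran from 0.067 to 0.22, with adjusted p values of 0.019 to 0.49 (edgeR, DESeq2 or limma-voom), and 5 passed. bhmt differed by 0.09 ± 0.06 (adjusted p = 0.37), and its libraries ran from -0.26 to 0.33. With library sizes alone the bhmt value was -0.012, and in cells with at least 3000 UMIs it was 0.23 with an adjusted p of 0.047. For ahcy the difference was -0.04 ± 0.07 (adjusted p = 0.76), with 4 libraries above 0 and 6 below.

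**Figure D1:**
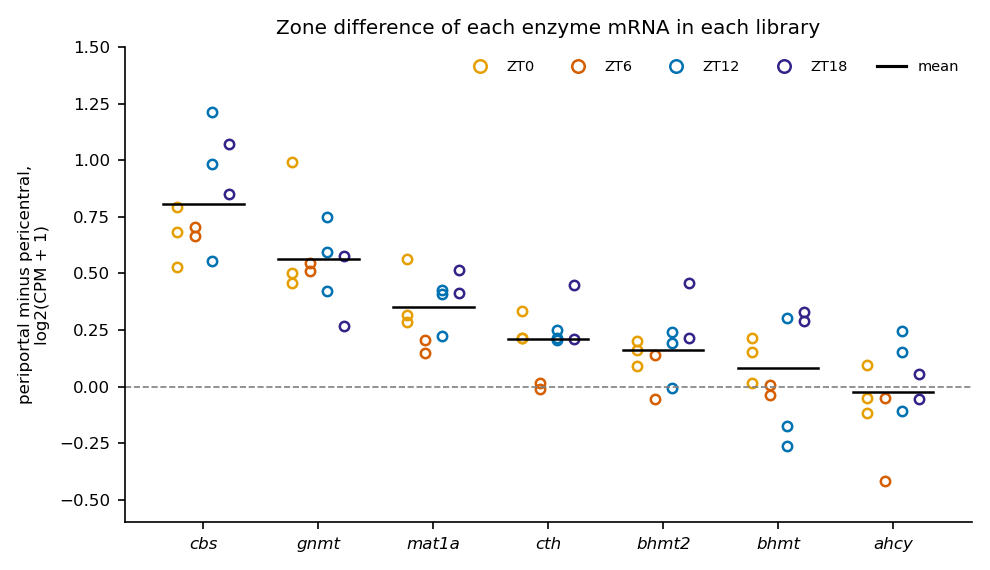
Zone difference of each enzyme message, periportal minus pericentral zone on log2(CPM + 1), with each circle a library, coloured by time, and each bar the mean of 10 libraries. All circles of cbs, gnmt and mat1a lie above 0, while those of bhmt and ahcy lie on both sides.

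Depth and mitochondrial share were not equal between the zones. The median of the libraries' median UMIs per cell was 1890.5 pericentrally and 2000 periportally, and the median mitochondrial share was 15.2% and 18.6%. Their part in the differences was not tested. Summed cholangiocyte markers ran from 1.57 to 22.8 CPM pericentrally and from 13.0 to 218 CPM periportally.

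The members were also compared with each other, as the difference of their zone differences within a library, by an exact two-sided sign-flip permutation test over 10 libraries. Of 21 pairs, 17 differed after adjustment over the pairs. cbs exceeded each of the other 6, and for the 5 pairs other than that with gnmt it did so in 10 of 10 libraries with p = 0.00195, the smallest that 10 libraries allow (adjusted p = 0.0037, exact test). cbs exceeded gnmt by 0.24 ± 0.24 (SD), in 9 of 10 libraries (exact p = 0.016, adjusted p = 0.019). Between the transsulfuration enzymes, the gradient of cbs was wider than that of cth by 0.60 ± 0.23 (SD, n = 10).

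gnmt in turn exceeded mat1a by 0.21 ± 0.17 (exact p = 0.0078, adjusted p = 0.011), and mat1a exceeded cth by 0.14 ± 0.12 in 8 of 10 libraries (exact p = 0.0098, adjusted p = 0.013). The 4 pairs not told apart all lie at the flat end of the order. bhmt and bhmt2, the neighbouring genes, differed by 0.08 ± 0.18 (exact p = 0.19, adjusted p = 0.20). The others were bhmt2 with cth, bhmt with cth, and ahcy with bhmt, and for these the mean differences were 0.05, 0.13 and 0.11 in size.

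When the same cells were cut into 8 layers, the mean level of cbs ran from 173 CPM in layer 1, next to the central vein, to 334 CPM in layer 8, a ratio of 1.93. gnmt ran from 613 to 1055 CPM (1.72) and mat1a from 1221 to 1773 CPM (1.45), each with its lowest mean in layer 1 and its highest in layer 8. For all 3 the mean of each layer was above that of the layer before it. cth and bhmt2 were also lowest in layer 1 and reached ratios of 1.26 and 1.31, with the highest mean of bhmt2 in layer 6. For bhmt and ahcy the highest layer exceeded the lowest by factors of 1.16 and 1.06. The layers come from the same libraries, so the spread between libraries does not measure these differences, and they were not tested by layer.

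**Figure D2:**
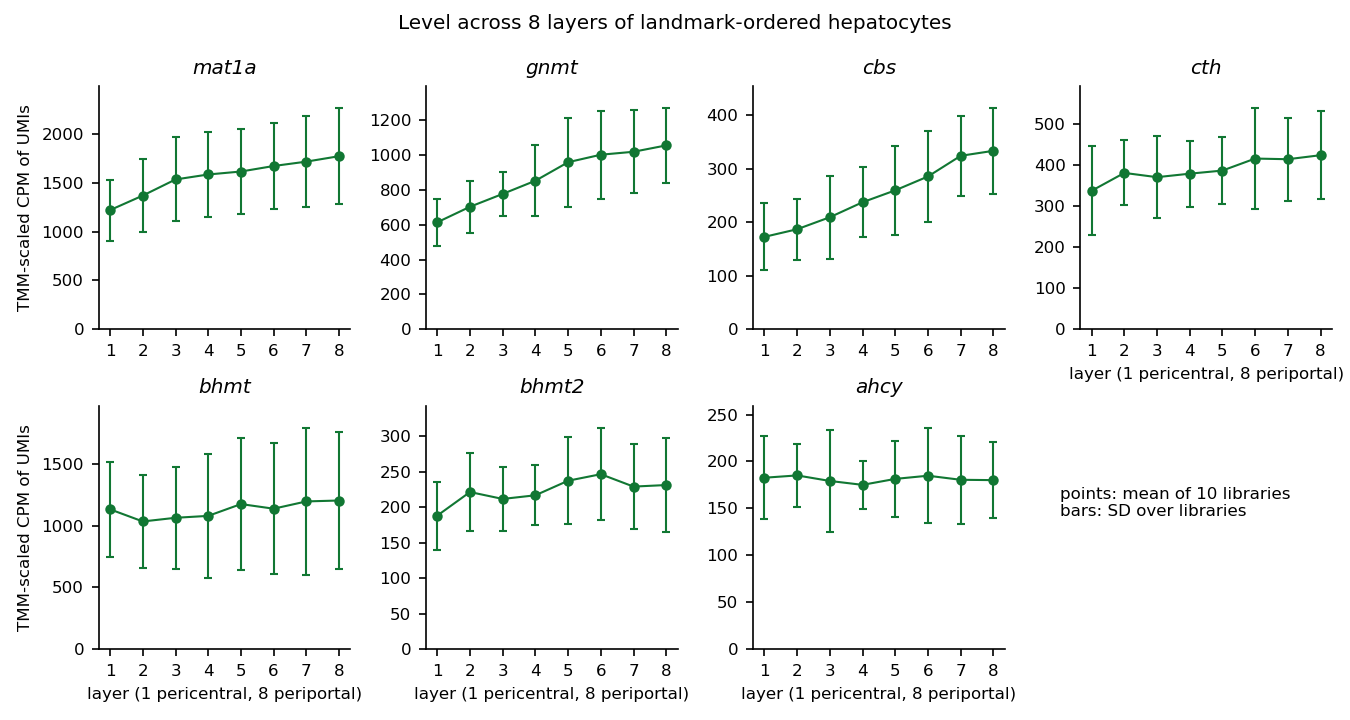
Mean level of each enzyme message (TMM-scaled CPM of UMIs, vertical axis from 0) in 8 layers from pericentral (1) to periportal (8), with bars giving the SD over 10 libraries. cbs climbs from 173 to 334 CPM, whereas ahcy stays between 175 and 185 CPM.

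The mid zone was set against the mean of the outer zones to look for a peak or a dip between them, and no enzyme was called (0 of 7, with 0 at an unadjusted p under 0.05 in edgeR, where 0.73% of 8910 genes were called). Of all 8910 genes, 735 had such an unadjusted p. DESeq2 and limma-voom also called 0 of the 7, against 0.438% and 0.842% of all genes. The value nearest to the threshold was that of mat1a, at 0.08 ± 0.04 (adjusted p = 0.61).

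Over the day, no message of the 7 passed the threshold with edgeR in the 3 comparisons made. For some of the 7 the libraries of a time lay apart from others, and the share of all genes that did so was not counted. A cosine of 24 h was fitted to the summed counts of the 10 libraries, and 5.14% of 8908 genes were called rhythmic. The 7 gave 0 calls, with 3 at an unadjusted p under 0.05, beside 1816 of the 8908 genes. The median amplitude of the 7 was 0.31 on the log2 scale, beside 0.25 over all genes tested. DESeq2 called 2, bhmt and cbs, where it called 8.89% of all genes, and limma-voom called 0, against 4.45% of all genes. The counts were summed over the cells of a library here. Whether a difference in such a sum came from fewer cells of a kind or from less RNA per cell was not tested.

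bhmt had the largest amplitude of the 7. Its levels were 1247, 1235 and 1014 CPM at ZT0, 717 and 857 CPM at ZT6, 1157, 529 and 836 CPM at ZT12, and 2242 and 1456 CPM at ZT18. Both ZT18 libraries stood above all 8 others, and both ZT6 libraries lay below all 3 of ZT0. The fitted amplitude was 0.66 with a peak at ZT19.4 (adjusted p = 0.086, edgeR).

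Between ZT18 and ZT6, bhmt differed by 1.23 ± 0.36 (SE, log2; 2.35-fold; adjusted p = 0.075, edgeR), where 3.79% of 8908 genes were called. That value passed the threshold with DESeq2 (1.24, adjusted p = 0.010), with no filter on low genes (1.23, adjusted p = 0.033), without ZT12 library A (adjusted p = 0.048) and without ZT12 library B (adjusted p = 0.041). Without ZT18 library A, the library of 2242 CPM, it was 0.89 with an adjusted p of 0.44, the lone ZT18 library then being assumed to vary like the others. Its counts were 6943 and 5124 UMIs at ZT18. The mitochondrial share of UMIs was 21.5% and 19.3% in the ZT18 libraries and 15.9% in ZT6 library A and 15.96% in ZT6 library B, and summed erythroid markers were 99.0 and 361 CPM at ZT18 and 76.5 and 87.8 CPM at ZT6. Their part in the differences between these times was not tested.

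The libraries lowest in cbs came from ZT12 and ZT18. Its levels were 231, 355 and 297 CPM at ZT0, 326 and 285 CPM at ZT6, 164, 232 and 233 CPM at ZT12, and 200 and 183 CPM at ZT18. The 2 ZT6 libraries were above all 5 of ZT12 and ZT18, while ZT0 library A, at 231 CPM, fell among them. The amplitude was 0.41 with a peak at ZT3.6 (adjusted p = 0.13, edgeR; 0.038 with DESeq2). ZT18 minus ZT6 was -0.67 ± 0.27 (adjusted p = 0.18) and ZT12 minus ZT0 was -0.48 ± 0.22 (adjusted p = 0.30).

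gnmt, which uses S-adenosylmethionine, stood at 962, 936 and 1036 CPM at ZT0, 836 and 1107 CPM at ZT6, 766, 716 and 999 CPM at ZT12, and 663 and 644 CPM at ZT18. Both ZT18 libraries were the lowest of the 10. The ZT18 minus ZT6 difference was -0.57 ± 0.27 (adjusted p = 0.26, edgeR), and the amplitude was 0.31 (adjusted p = 0.34).

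**Figure D3:**
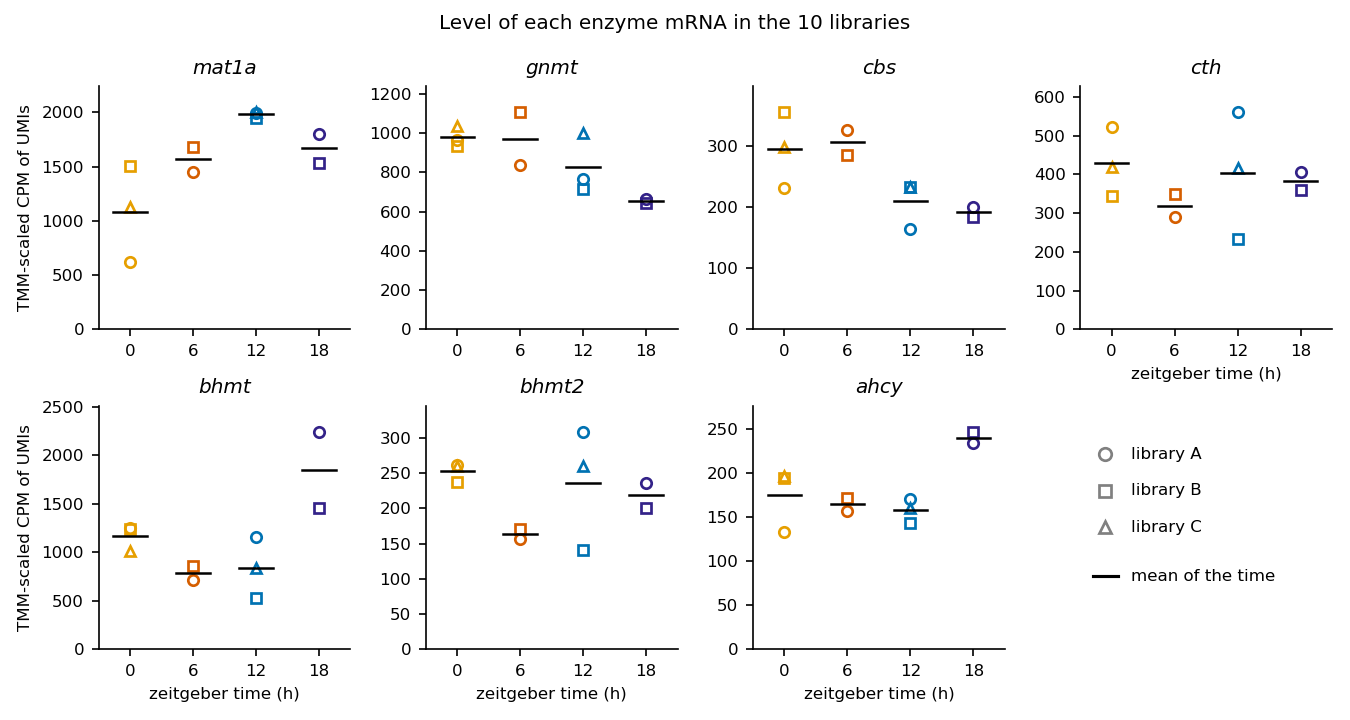
Level of each enzyme message in each of the 10 libraries (symbols; TMM-scaled CPM of UMIs, vertical axis from 0) against zeitgeber time, with bars at the mean of each time. The 3 ZT12 libraries of mat1a lie within 1951 and 2002 CPM, and the ZT18 libraries of bhmt and ahcy lie above all others.

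mat1a was highest at ZT12, where the 3 libraries held 1992, 1951 and 2002 CPM. It stood at 617, 1508 and 1126 CPM at ZT0, 1452 and 1683 CPM at ZT6, and 1802 and 1531 CPM at ZT18. Every ZT12 library was above the 7 others, and the ZT0 libraries were the most widely spread (1084 ± 447 CPM, SD, n = 3). ZT12 minus ZT0 was 0.87 ± 0.29 (SE; 1.83-fold; adjusted p = 0.14, edgeR), where 3.44% of 8908 genes were called. DESeq2 gave 0.87 with an adjusted p of 0.034, and a fit with the library letter as a replicate block 0.91 with an adjusted p of 0.064, in which 504 of all genes were called beside 306. Without ZT0 library A the value was 0.59 (adjusted p = 0.29).

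The sample indices of the libraries give a possible batch, since libraries of the same letter at ZT0 and ZT12 carry indices from the same plate column. Within columns, the mat1a ratio of ZT12 to ZT0 was 3.23 in column 3 (617 to 1992 CPM), 1.78 in column 5 (1126 to 2002 CPM) and 1.29 in column 7 (1508 to 1951 CPM), so the direction was shared and the size was not. bhmt was below its ZT0 level in all 3 columns, with ratios of 0.93, 0.82 and 0.43. The same held for cbs (0.71, 0.78 and 0.65) and gnmt (0.80, 0.96 and 0.76). For ahcy, bhmt2 and cth the columns disagreed. Their ratios were 1.28, 1.18 and 1.07 in column 3 but 0.74, 0.60 and 0.68 in column 7. The share of all genes with the same direction in all 3 columns was not counted. The 2 ZT6 libraries are both from column 7 and the 2 ZT18 libraries both from column 4, which holds no library of another time. For ZT18 against any other time, the column and the time therefore cannot be told apart. The same holds for the part of ZT18 in the cosine fits.

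ahcy stood at 234 and 247 CPM at ZT18, above all 8 other libraries, which held 133 to 197 CPM. Its ZT18 minus ZT6 difference was 0.55 ± 0.24 (adjusted p = 0.23, edgeR) and its amplitude 0.28 (adjusted p = 0.35). bhmt2 held 157 and 171 CPM at ZT6, below every library but ZT12 library B, at 141 CPM. Its amplitude was 0.21 (adjusted p = 0.73) and its ZT18 minus ZT6 difference 0.41 ± 0.31 (adjusted p = 0.49). cth held 290 and 349 CPM at ZT6, within the 234 to 561 CPM of ZT12, and its amplitude was 0.14 (adjusted p = 0.88). That amplitude was 0.050 without ZT6 library A and 0.25 without ZT12 library A, and that of bhmt2 was 0.10 without ZT6 library A and 0.35 without ZT18 library B.

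The remaining differences were small against their errors. ZT12 minus ZT0 was -0.47 ± 0.29 for bhmt (-0.77 without ZT12 library A, -0.24 without ZT12 library B), -0.24 ± 0.22 for gnmt, -0.15 ± 0.20 for ahcy, -0.10 ± 0.25 for bhmt2 and -0.09 ± 0.28 for cth. ZT18 minus ZT6 was 0.26 ± 0.35 for cth and 0.09 ± 0.36 for mat1a. In the 2 comparisons 0 of 7 were called in each, with 2 at an unadjusted p under 0.05 between ZT12 and ZT0 and 3 between ZT18 and ZT6. Of all 8908 genes, 1385 and 1744 had such a p in edgeR. DESeq2 called 1 in each, against 4.12% of all genes between ZT12 and ZT0 and 4.19% between ZT18 and ZT6, and limma-voom 0, against 3.54% and 3.24%.

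The zone differences were then followed over the day. No enzyme had a rhythm that depended on the zone (0 of 7 called in edgeR, DESeq2 and limma-voom), against 0.0448% of 8923 genes in edgeR. At an unadjusted p under 0.05 in edgeR were 0 of the 7 and 546 of all genes. The lowest p of the 7 was that of bhmt, at 0.17 (adjusted p = 0.88). Its zone difference was 0.13 ± 0.10 at ZT0 (SD, n = 3), -0.02 ± 0.03 at ZT6 (n = 2), -0.04 ± 0.31 at ZT12 (n = 3) and 0.31 ± 0.03 at ZT18 (n = 2). The 3 ZT12 libraries ran from -0.26 to 0.30. cth had a zone difference of 0.02 and -0.01 in the 2 ZT6 libraries and of 0.20 to 0.45 in the 8 others, with an adjusted p of 0.91 in the same test. The cbs difference was 0.67 ± 0.13 at ZT0 and 0.69 ± 0.03 at ZT6, followed by 0.92 ± 0.34 at ZT12 and 0.96 ± 0.16 at ZT18.

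Across the 10 libraries the 7 levels were set against each other in 21 relations, a comparison chosen after the values had been seen. 1 relation passed adjustment over the 21, that of bhmt2 with cth, which lie on chromosomes 13 and 3. Their log2 levels had a Pearson r of 0.92 (permutation p = 0.0001 over 100000 draws, adjusted p = 0.0021) and a Spearman rho of 0.92 (permutation p = 0.00052, adjusted p = 0.011). Leaving out the 2 libraries farthest from the median of bhmt2, ZT6 A and ZT12 B, r was 0.80. As deviations from the mean of each time, r was 0.94. By that measure r was also 0.88 for bhmt with bhmt2, 0.85 for mat1a with ahcy and 0.83 for bhmt with cth. It ran down to -0.75, for cbs with cth. Deviations within a time sum to 0, so the 10 values of a gene are not independent. The r of deviations was neither tested nor set beside that of all genes. For scale, on library sizes alone the r of bhmt2 with cth was also 0.92. There 4 of 8907 other genes (0.0449%) had an r with cth at least as high as that of bhmt2. With bhmt2, 11 (0.123%) had one at least as high as that of cth.

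cth and bhmt2 shared their extremes. ZT12 library A was the highest of the 10 for both, at 561 and 309 CPM, and ZT12 library B the lowest, at 234 and 141 CPM. The number of cells in a library moved with them, with an r of -0.65 for cth and -0.55 for bhmt2 on log2 scales, and its part in the relation was not tested. The index column with the most libraries, column 7, holds 4, fewer than the 6 asked of a correlation here. Their levels were 346, 290, 349 and 234 CPM of cth and 237, 157, 171 and 141 CPM of bhmt2 in ZT0 B, ZT6 A, ZT6 B and ZT12 B. ahcy with bhmt (r = 0.69, permutation p = 0.027, adjusted p = 0.29) and gnmt with cbs (r = 0.63, permutation p = 0.058, adjusted p = 0.34) did not pass. As deviations from the mean of each time these were 0.16 and 0.02, and on library sizes alone 0.60 and 0.67. There 4.28% of 8907 other genes had an r with bhmt at least as high as ahcy and 5.69% had one with ahcy at least as high as bhmt, and the shares were 6.27% for gnmt and 6.59% for cbs.

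**Figure D4:**
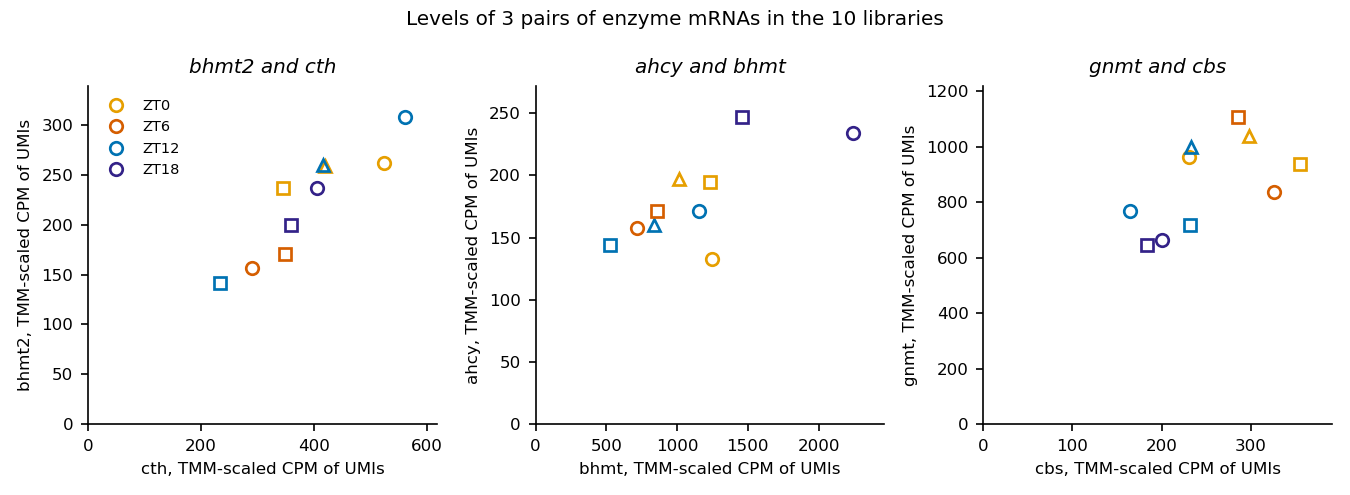
Levels of bhmt2 and cth, ahcy and bhmt, and gnmt and cbs in each library (TMM-scaled CPM of UMIs on both axes, which start at 0), coloured by time, with circles, squares and triangles for libraries A, B and C. For bhmt2 and cth, ZT12 library B is the lowest point on both axes and ZT12 library A the highest.

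Over layers and times together, pairs stood out among the 7 by their mean profile over 8 layers at 4 times (32 points, each a mean of 2 or 3 libraries that the layers of a time share). The r between profiles was 0.89 for gnmt with cbs, 0.88 for bhmt2 with cth and 0.86 for ahcy with bhmt. The profile of mat1a had an r between -0.14 and -0.03 with each of the others, and that of bhmt with bhmt2 was 0.34. Other genes had an r over 0.9 with bhmt (0.69% of 4318), with gnmt and with cbs (0.23% each) and with ahcy (0.046%). Thus gnmt with cbs and ahcy with bhmt were not each other's closest profiles. With bhmt2 and with cth the share was 0%. Among 4318 other genes, the profiles most like cbs were those of ctsb (r = 0.98), a lysosomal protease, vtn (0.94) and fgb (0.92), and those most like gnmt were vtn (0.95), fgb (0.94) and apoa1 (0.93), the latter 3 encoding vitronectin, fibrinogen beta and apolipoprotein A1, which hepatocytes secrete.

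The closest profile to mat1a was that of mfsd2a (0.92), the transporter of lysophosphatidylcholine, followed by zbtb20 (0.89) and pptc7 (0.85). Those closest to bhmt were mup4 (0.95), lap3 (0.95) and mup10 (0.95). mup4 and mup10 belong to the major urinary proteins, a family of near-identical copies whose counts are uncertain. For ahcy they were rpl10-ps3 (0.90), dmgdh (0.90) and rpl27-ps3 (0.90), the suffix ps marking ribosomal protein pseudogenes. bhmt2 was followed by eif4e (0.83), rpn1 (0.82) and serpina3k (0.82), and cth by serpina3k (0.84), canx (0.82) and cp (0.82).

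The surrounding pathway was read from 5 lists, of which 53 genes passed the filter. Between the zones, 11 of the 53 were higher periportally and 11 pericentrally, beside 12% and 12.8% of all 8923 genes tested. The median difference of the 53 was 0.03. Csad, which makes hypotaurine on the way to taurine, had 770 ± 294 CPM pericentrally and 118 ± 55.6 CPM periportally (SD, n = 10), a difference of -2.74 ± 0.10 (adjusted p = 4.7e-21, edgeR). Cdo1, cysteine dioxygenase, the step before it, was also higher pericentrally (-0.73 ± 0.06, adjusted p = 2.1e-11), as was Fmo1, a monooxygenase that oxidises hypotaurine to taurine (-0.85 ± 0.08, adjusted p = 8.4e-11).

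Of the 16 tested genes of the list of cysteine, taurine and sulfide, 4 were higher periportally and 5 pericentrally. Got1, the cytosolic aspartate aminotransferase, was higher periportally by 1.05 ± 0.08 (adjusted p = 2.7e-12, edgeR). Csad was the 1 pathway gene called between the mid zone and the mean of the outer zones, at 0.42 ± 0.10 (adjusted p = 0.017, edgeR), where 0.73% of 8910 genes were called. This contrast is on the log2 scale and does not mark a peak of Csad. Its mid-zone level, 402 ± 164 CPM (SD, n = 10), lay between 770 CPM pericentrally and 118 CPM periportally.

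Among 13 partners and users of S-adenosylmethionine, 3 were higher periportally and 2 pericentrally. Nnmt, which methylates nicotinamide, was higher periportally by 1.46 ± 0.10 (adjusted p = 2.0e-14, edgeR) and Hnmt, which methylates histamine, by 0.88 ± 0.14 (adjusted p = 1.1e-05). Mat2a, the methionine adenosyltransferase of other tissues and the counterpart of mat1a, went the other way, at 70.9 ± 20.9 CPM pericentrally and 45.8 ± 12.8 CPM periportally (-0.63 ± 0.08, adjusted p = 2.5e-07). It is named after its values were seen. Of the remethylation and folate list 1 of 8 was higher periportally and 0 pericentrally, of choline and betaine to glycine 1 and 2 of 8, and of polyamine synthesis and salvage 2 and 2 of 8.

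**Figure D5:**
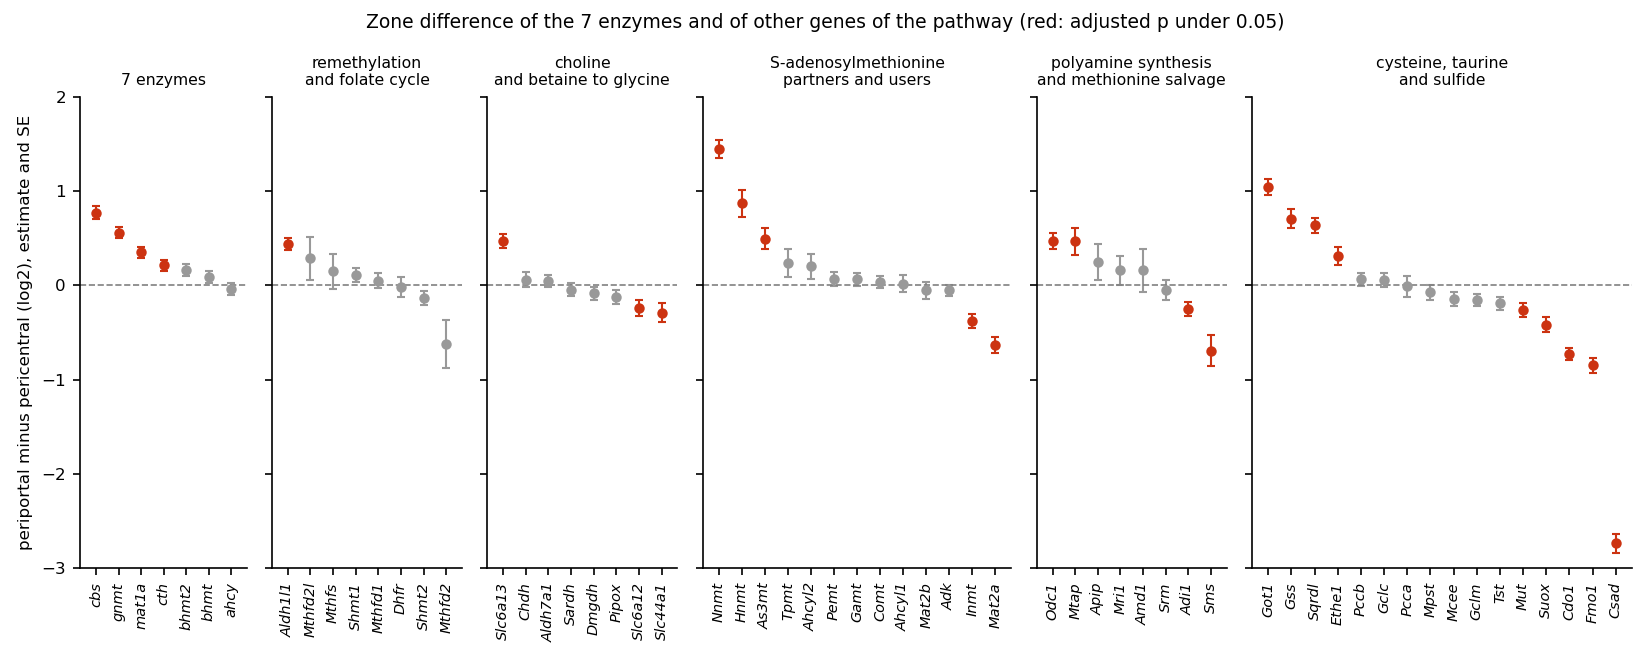
Fitted difference between periportal and pericentral zones (log2, with SE) of the 7 enzymes and of 53 other genes in 5 lists, with genes called at an adjusted p under 0.05 in red. cbs at 0.77 leads the enzymes, Nnmt at 1.46 is the highest of the pathway and Csad at -2.74 the lowest.

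Over the day, 5 of the 53 pathway genes were called rhythmic, beside 5.14% of 8908 genes. Ahcyl2, a relative of ahcy, was rhythmic with an amplitude of 0.95 (adjusted p = 0.011, edgeR) and higher at ZT18 than at ZT6 by 1.86 ± 0.34 (adjusted p = 0.011), at 29.4 ± 2.22 against 8.02 ± 0.70 CPM (SD, n = 2 each). Srm, spermidine synthase, was rhythmic with an amplitude of 0.78 (adjusted p = 0.026) and higher at ZT18 by 1.49 ± 0.29 (adjusted p = 0.015), at 48.1 ± 1.86 against 17.1 ± 0.70 CPM. Odc1, ornithine decarboxylase, which starts polyamine synthesis, also had an amplitude of 0.78 (adjusted p = 0.028) and was higher at ZT18 than at ZT6 by 1.54 ± 0.32 (adjusted p = 0.019). In that comparison 3 of the 53 were higher and 2 lower, where 3.79% of 8908 genes were called. The lower were Cdo1 (-1.30 ± 0.30, adjusted p = 0.030, edgeR) and Tst, thiosulfate sulfurtransferase (-1.18 ± 0.25, adjusted p = 0.020). Here too the index column of the ZT18 libraries and the time cannot be told apart.

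Between ZT12 and ZT0, 1 pathway gene was higher and 2 were lower, where 3.44% of 8908 genes were called. Got1 was higher by 1.02 ± 0.26 (adjusted p = 0.047, edgeR). Ethe1, the mitochondrial persulfide dioxygenase, was lower (-1.30 ± 0.25, adjusted p = 0.0093), as was Slc44a1, a choline transporter (-1.15 ± 0.19, adjusted p = 0.0031).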

How the data were processed

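The deposited tables hold UMI counts per gene and cell for the 10 libraries, made with the 10x 3′ kit per the labels' protocols. Cell Ranger and the builds hg19 and mm10 are named in the submitters' processing notes, without version or role. Counts of all cells were summed per library, or per library and zone, the cells being ordered by periportal minus pericentral landmark score and split into 3 zones of equal cell number, and tested with edgeR 4.0.16 (TMM, glmQLFTest, mean of at least 3 CPM, the library as a block between zones). Per-library values are log2(CPM + 1). The alternatives were DESeq2 1.42.0, limma-voom 3.58.1, other scaling, filters, cells and landmarks, a replicate block, and leaving out each library. No doublets were called, and cells held up to 10001 UMIs. The main edgeR fits, but none of the alternatives, were tested on simulated data. There all genes had the same spread, and the zones of a library shared no effect.

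The members and gene lists were chosen with earlier results of these data known. 1 pathway gene is not reported here. All 7 enzymes are named. Of the pathway lists, up to 3 genes per direction with the largest change among those called are named, and for each enzyme the 3 genes of most similar profile (mean of at least 20 CPM). Deviations of same-lettered libraries from their time's mean correlated over 0.1 in all 3 ZT0 and ZT12 pairs (r = 0.24 to 0.49) but not between ZT6 and ZT18 (0.03), and the letters are not explained in the labels.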

Additional observations from a re-analysis of the deposited data

How the results depend on the processing

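Between the outer zones cbs, gnmt and mat1a were called under each of 21 alternatives, with differences of 0.67 to 0.86, 0.46 to 0.64 and 0.25 to 0.42. The number of enzymes called was 3 to 5 of 7 (4 to 5 when single libraries were left out), cth being lost with library sizes alone and bhmt2 or bhmt gained in the settings that called 5, among them limma-voom, the filter at 20 CPM and the fit without the 5% of cells with the most UMIs. The bhmt zone difference was -0.012 with library sizes alone. That of ahcy was -0.059 to 0.0075 when single libraries were left out, above 0 without ZT6 library A. The share of all genes called ran from 13.7% in cells with at least 3000 UMIs to 38.6% with the filter at 20 CPM. The pairs of enzymes that differed numbered 17 under each of their 12 alternatives (a pseudocount of 0.1, library sizes alone and leaving out each library).

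Rhythm calls among the 7 were 0, beside 2 with DESeq2, 1 with no filter on low genes and 1 in the fit with the library letter as a replicate block (bhmt, amplitude 0.64, adjusted p = 0.049). Without both ZT18 libraries 0 of the 7 were called and 0 had an unadjusted p under 0.05 in edgeR, where 231 of all genes were called. Between ZT12 and ZT0 the count was 0, or 1 with DESeq2. Between ZT18 and ZT6 it was 0, but 1 with DESeq2, with no filter and in the replicate block fit (bhmt, 1.18, adjusted p = 0.034), and 0 to 1 when single libraries were left out. The letters were not shown to pair ZT6 with ZT18, whose same-lettered deviations had an r of 0.03. The block raised the calls over all genes from 458 to 749 for rhythm and from 338 to 730 between ZT18 and ZT6, and it changed no other call among the 7. ZT12 minus ZT0 was 0.048 for bhmt2 and 0.064 for cth with library sizes alone, where 202 genes were higher and 101 lower beside 155 and 151 with TMM. With single libraries left out it ran from -0.34 to 0.15 for bhmt2 and from -0.40 to 0.17 for cth, the highest values being without ZT12 library B, and cth was at 0.076 without ZT0 library A. Over all 19 alternatives it ran from -0.77 to -0.24 for bhmt, from -0.41 to -0.062 for gnmt and from -0.31 to -0.015 for ahcy. ZT18 minus ZT6 of cth was 0.13 without ZT6 library A. ZT18 minus ZT6 of mat1a ran from -0.032 to 0.20 with single libraries left out, below 0 without ZT6 library A and without ZT18 library A. The cause of these shifts was not tested.

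Calls over all genes between ZT18 and ZT6 fell to 50 and 60 with ZT6 library A or B left out, and rhythm calls to 228 and 249 with ZT18 library A or B left out. Each enzyme had at least 244 UMIs in every library, so its level in a library was not limited by counts near 0.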
